A study of Homo sapiens with 8 samples.

Results

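The HOX genes encode homeodomain transcription factors that give cells their position along the body axis, and in human they lie in 4 clusters named HOXA, HOXB, HOXC and HOXD. Members were taken by name, and 38 of 19970 protein-coding genes of GENCODE 44 on chromosomes 1 to 22 and X were analysed, namely 10 HOXA, 10 HOXB, 9 HOXC and 9 HOXD genes. A further HOX gene was not analysed here. Chromatin accessibility was measured by ATAC-seq, in which the Tn5 transposase cuts open chromatin, in HEK293T, a line derived from human embryonic kidney. The 4 stable lines received a V5-tagged EZH2 construct by lentivirus, namely EZH2 WT, the gain-of-function (GOF) mutants Y641F and A677G, or the loss-of-function (LOF) double mutant H689A/F667I, with 2 libraries per line and 8 in all. Every line also kept its endogenous EZH2 and was selected with blasticidin toward monoclonal populations, so a line may stand for 1 clone, and library differences within a line cannot show differences between clones.

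EZH2 is the catalytic subunit of Polycomb repressive complex 2 (PRC2), which methylates lysine 27 of histone H3 and keeps developmental genes silent. The HOX clusters are among its best known targets, and in cells with a set position some HOX genes are active while their neighbours carry the Polycomb mark. Genes of a cluster are numbered by paralogue group from the end that is used in anterior tissues (groups 1 to 3) through the trunk (groups 4 to 8) to the posterior body, limbs and urogenital tract (groups 9 to 13).

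A gene was described by its window, which is its body plus 1 kb on either side of each of its annotated start sites, and by the broad peaks that overlapped this window by at least 1 bp. The length under peaks is the number of bases of the window inside peaks. The absence of a peak means that none was called, which is not absence of signal, and a peak present in fewer cells cannot be told apart from one that is weaker in each cell. The lists held between 26350 peaks in the first Y641F library and 64923 in the first WT library, covering 15.2 to 42.5 Mb, and the read depth behind them is unknown. All 6 mutant libraries had fewer peaks than both WT libraries, so the cluster lengths are given also as a share of the library, whereas the lengths of single genes and regions are not scaled. The kidney markers PAX2, LHX1, EYA1 and WT1 had a promoter peak in all 8 libraries and PAX8 in 2. Of 5 markers of other cell types, the promoters of PTPRC, CD3E, ALB and CDH5 had no peak in any library, whereas that of MYOD1 had one in all 8.

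Promoter sequences show how unlike neighbouring HOX genes are at their starts. Genes of the HOXD cluster and HOXA9 are shown, because HOXD13 and HOXD11 had a peak in this stretch in all 8 libraries, HOXD12 and HOXD4 in none, and HOXA9 in the WT libraries but not in Y641F. The HOXA9 stretch had 149 and 250 bp under peaks in WT, 0 and 64 bp in A677G, and only 5 and 7 bp in LOF. Each sequence is the 250 bases before the RefSeq start (GRCh38.p14), 5′ to 3′ on the strand of the gene, with every CpG dinucleotide in capitals. The HOXD sequences lie on the plus strand at chr2:176092471-176092720 for HOXD13, chr2:176099545-176099794 for HOXD12, chr2:176107030-176107279 for HOXD11 and chr2:176151300-176151549 for HOXD4. The HOXA9 sequence lies on the minus strand at chr7:27165538-27165787.
HOXD13: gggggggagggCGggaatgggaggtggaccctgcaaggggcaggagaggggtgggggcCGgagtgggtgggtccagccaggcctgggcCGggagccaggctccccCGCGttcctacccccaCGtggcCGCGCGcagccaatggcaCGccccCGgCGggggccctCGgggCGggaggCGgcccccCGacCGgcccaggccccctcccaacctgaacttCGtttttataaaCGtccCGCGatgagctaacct
HOXD12: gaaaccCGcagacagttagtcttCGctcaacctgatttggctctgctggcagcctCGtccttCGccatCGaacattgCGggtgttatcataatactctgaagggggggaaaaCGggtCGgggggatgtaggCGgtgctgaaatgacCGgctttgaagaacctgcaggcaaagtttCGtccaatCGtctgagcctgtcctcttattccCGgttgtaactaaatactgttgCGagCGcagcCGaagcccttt
HOXD11: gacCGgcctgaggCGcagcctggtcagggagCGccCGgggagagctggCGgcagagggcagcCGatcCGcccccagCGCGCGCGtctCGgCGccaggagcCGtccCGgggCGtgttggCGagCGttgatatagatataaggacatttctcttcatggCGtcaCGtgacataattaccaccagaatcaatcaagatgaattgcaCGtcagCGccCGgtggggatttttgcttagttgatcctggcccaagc
HOXD4: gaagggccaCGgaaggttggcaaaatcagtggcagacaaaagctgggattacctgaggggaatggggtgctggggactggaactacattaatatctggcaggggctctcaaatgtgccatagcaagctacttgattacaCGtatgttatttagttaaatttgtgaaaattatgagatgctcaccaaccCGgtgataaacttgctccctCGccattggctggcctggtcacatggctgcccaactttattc
HOXA9: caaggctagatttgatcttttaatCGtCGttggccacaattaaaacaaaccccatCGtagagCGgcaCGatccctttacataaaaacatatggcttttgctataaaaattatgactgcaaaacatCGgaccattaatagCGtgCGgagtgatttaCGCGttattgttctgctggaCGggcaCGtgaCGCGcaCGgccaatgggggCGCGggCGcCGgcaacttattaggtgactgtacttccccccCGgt

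HOXD13 held 21 CpG and HOXD11 held 23, against 16 in HOXD12 and 4 in HOXD4. Of the 35116 promoters of the same table, 69.8% held fewer CpG than HOXD13, 74.2% fewer than HOXD11, 59.0% fewer than HOXD12 and 29.3% fewer than HOXD4. The 20 matched HOX genes had 27 RefSeq entries, of which those of HOXC4 and HOXC5 are the same stretch. The 7 entries with a peak in all 8 libraries held 19 to 40 CpG, and the 10 with none held 0 to 27. The ranges overlap: HOXA6, with 27 CpG, HOXD10, with 23, and HOXD3, with 21, had no peak in this stretch in any library. The CpG letters read the same on both strands, and their number is given as a description of these windows.

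In WT cells the clusters were accessible in parts. The first and second WT libraries had a peak in 31 and 32 of the 38 windows, or 81.6% and 84.2%, close to the 81.5% and 81.0% of all protein-coding genes. Both Y641F libraries had a peak in 24 windows, the A677G libraries in 26 and 27, and the LOF libraries in 30 and 29. As a share this was 63.2% of HOX genes in both Y641F libraries, beside 66.7% and 74.0% of all genes in the same libraries. In the first and second A677G libraries it was 68.4% and 71.1% of HOX genes beside 75.6% and 77.8% of all genes. In the LOF libraries it was 78.9% and 76.3% of HOX genes, near the 78.5% and 78.3% of all genes. Peaks in HOX windows had a low fold enrichment over local background, as MACS2 gives it, with a median of 2.70 to 2.93 per library against 3.64 to 3.78 for all peaks. By −log10 p they were not low in every library. Their median was 6.45 and 6.51 in WT, above the 5.96 and 6.04 of all peaks, and 4.91 and 5.54 in Y641F, below the 5.76 and 5.95 of all peaks. The A677G and LOF lines each had a library above and a library below the median of all peaks.

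Of the 38 genes, 22 had a peak in all 8 libraries, or 57.9% beside 64.7% of all protein-coding genes, 11 in some, and 5 in none, or 13.2% beside 14.6%. The 5 without any peak were HOXA2, which patterns the second pharyngeal arch, HOXC12, and HOXD4, HOXD9 and HOXD12. HOXD4, HOXD9 and HOXD12 lie in the HOXD cluster amid genes that were accessible in every library, namely HOXD13, HOXD11, HOXD8 and HOXD3. HOXD10, next to HOXD9, had a peak in only 3 libraries. Among paralogue groups 1 to 3, 4 of 7 genes had a peak in all libraries, beside 9 of 15 in groups 4 to 8 and 9 of 16 in groups 9 to 13. At promoters, taken as 1 kb on either side of the start sites, 19 genes had a peak in all 8 libraries, beside 59.2% of all genes, and 7 in none, beside 22.3%, or 50% and 18.4% of the HOX genes. The 7 were the 5 above and HOXB1 and HOXC8.

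**Figure D1:**
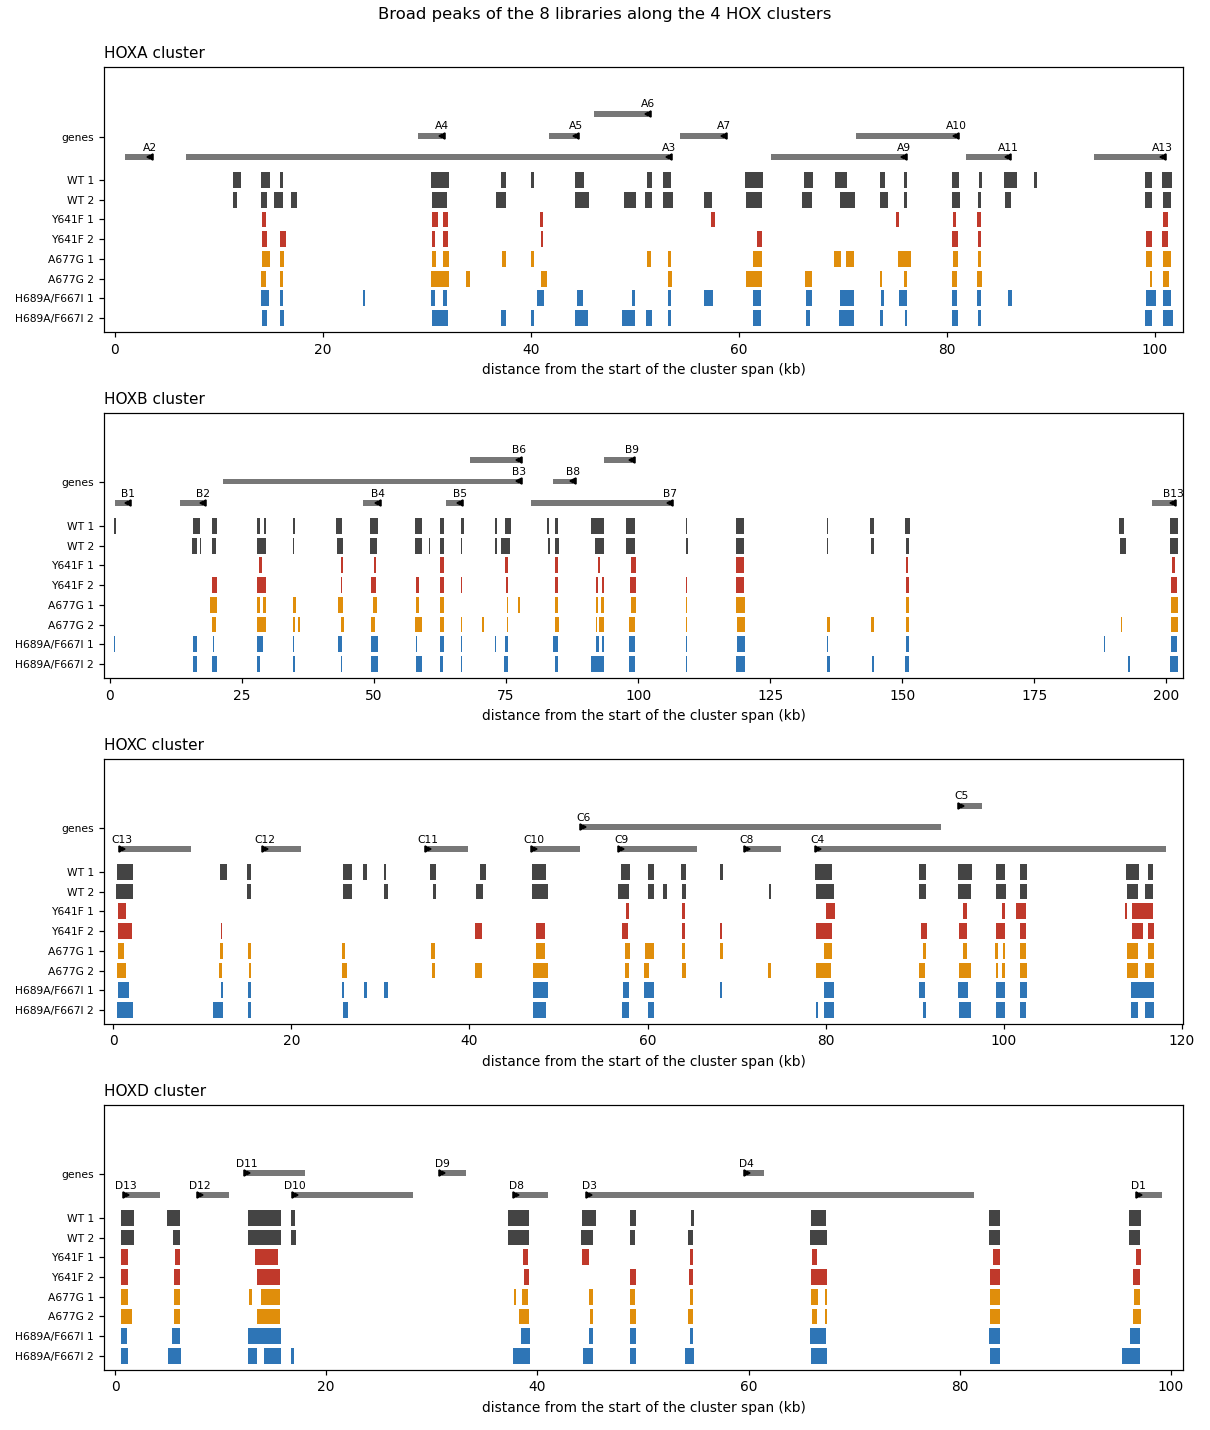
Broad peaks (coloured bars) of each library along the HOXA, HOXB, HOXC and HOXD clusters, with the distance from the start of the cluster span in kb on the x axis and a row per library. Grey bars are gene bodies with an arrowhead at the start site; peaks at HOXA5 and HOXB2 are seen in the WT and H689A/F667I rows and in no Y641F or A677G row.

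The question of the design is whether GOF and LOF mutants of EZH2 changed accessibility, and over whole clusters less sequence lay under peaks in every mutant library than in both WT libraries. The span of a cluster ran from 1 kb before its first analysed gene to 1 kb after its last, at chr7:27099354-27201091 for HOXA, chr17:48527526-48729750 for HOXB, chr12:53937831-54057030 for HOXC and chr2:176091721-176191907 for HOXD. In HOXA the WT libraries had 15195 and 17995 bp under peaks, the Y641F libraries 3539 and 4211 bp, the A677G libraries 9079 and 8427 bp and the LOF libraries 11801 and 12104 bp. The 4 lines thus stood apart from each other in HOXA, with Y641F lowest at 23.4% of the WT mean, A677G at 52.7% and LOF at 72.0%.

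In HOXB the lengths were 21908 and 21090 bp in WT, 6808 and 11439 bp in Y641F, 12580 and 15541 bp in A677G, and 13838 and 16275 bp in LOF. In HOXC they were 18393 and 18223 bp in WT, 7065 and 11762 bp in Y641F, 9918 and 13791 bp in A677G, and 13768 and 13144 bp in LOF. In HOXD they were 13884 and 13299 bp in WT, 6230 and 8014 bp in Y641F, 7711 and 8568 bp in A677G, and 9837 and 12627 bp in LOF. In HOXB and HOXC the A677G and LOF libraries overlapped, whereas in HOXD both GOF lines lay below both LOF libraries.

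The 4 GOF libraries had 6314 ± 2842 bp under peaks in HOXA (SD, n = 4) and the 4 WT and LOF libraries 14274 ± 2917 bp (SD, n = 4), a log2 difference of -1.27. The exact two-sided permutation test over 70 assignments gave p = 0.0286 (n = 4 and 4), the smallest that 4 against 4 libraries allow. The 4 libraries of a side come from 2 lines, so this test treats libraries of the same line as independent. Its p, like those below, measures spread between libraries and not between lines. HOXD also showed no overlap, at 7631 ± 999 bp against 12412 ± 1792 bp (SD, n = 4 each), a log2 difference of -0.70 with the same exact p of 0.0286. HOXB differed by -0.69 (exact permutation p = 0.0571) and HOXC by -0.60 (exact permutation p = 0.0857), with overlap between the sides. After Benjamini-Hochberg adjustment over the 8 cluster tests the lowest adjusted exact p was 0.114, so none passed 0.05. Each mutant against WT could not go below an exact p of 0.333 with 2 libraries each, and all 12 such comparisons had both mutant libraries below both WT libraries.

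Set against all sequence under peaks in the same library, most of this difference was not seen. HOXA took 357 and 436 bp per Mb of covered sequence in WT, 233 and 188 bp in the Y641F libraries, 404 and 312 bp in A677G, and 398 and 399 bp in LOF. The Y641F libraries were the lowest, and those of A677G overlapped WT. The share differed between the GOF libraries and the WT and LOF libraries by -0.54 on the log2 scale in HOXA (exact permutation p = 0.114), 0.042 in HOXB (p = 0.657), 0.13 in HOXC (p = 0.0571) and 0.036 in HOXD (p = 0.686). HOXC was thus, if anything, higher in share in the GOF libraries, with 442 to 525 bp per Mb against 433 to 464. The adjusted exact p of HOXC was 0.114. When the 26350 peaks with the highest −log10 p were taken from each library, the GOF difference in length was -0.038 in HOXA, -0.090 in HOXB, 0.012 in HOXC and -0.68 in HOXD, the last with an exact permutation p of 0.0286 and an adjusted p of 0.114. When peaks were kept from a −log10 q of 5 upward, the HOXD difference was -2.09 (exact permutation p = 0.114), and LOF over WT in HOXD moved from -0.28 to -2.55. The HOXD difference in length was thus close to that with all peaks, -0.70, at equal peak numbers, and its size changed with the −log10 q cut. In share, HOXD at equal peak numbers differed by -0.39 (exact permutation p = 0.0286, adjusted p = 0.114).

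**Figure D2:**
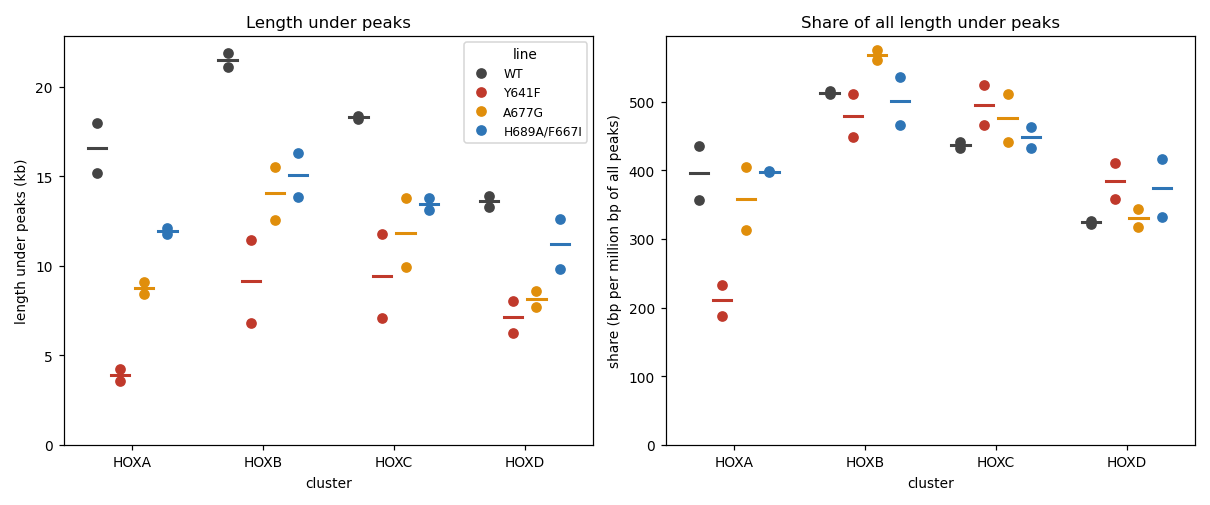
Length under peaks in kb (left) and the same length in bp per Mb of all peaks of the library (right) for the 4 clusters, with a point per library, a bar at the mean of the 2 libraries of a line, and colours by line. All mutant points lie below the WT points on the left, whereas on the right the Y641F points of HOXA, at 233 and 188, are the only mutant pair clearly below WT.

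HOXA5 and HOXB2 were the 2 genes that had a peak in all 4 WT and LOF libraries and in none of the 4 GOF libraries. HOXA5 (ENSG00000106004.5, chr7:27141052-27143681, minus strand), which is needed in lung and thyroid development, had 779 and 1047 bp under peaks in WT, 589 and 1045 bp in LOF and no peak in Y641F or A677G. HOXB2 (ENSG00000173917.11, chr17:48540894-48545109, minus strand), a hindbrain gene, had 1429 and 1162 bp in WT, 773 and 805 bp in LOF and no peak in Y641F or A677G. The merged region of HOXA5, chr7:27143630-27144907, lies at and upstream of its start. That of HOXB2, chr17:48543134-48544884, lies inside the gene body and within 1 kb of its annotated start sites. The highest −log10 p at HOXA5 was 3.40 to 4.68, below the median of all peaks in each of the 4 libraries. At HOXB2 it was 6.48 and 6.12 in WT, above the medians of 5.96 and 6.04, and 4.90 and 3.71 in LOF, below the medians of 5.85 and 5.87. At equal peak numbers neither gene had a peak in any library. The pattern also depended on the window. With 2 kb around start sites, 0 HOX genes with a peak in each WT library had none in A677G. A region upstream of HOXB2 and outside its window, chr17:48546572-48547897, had 1172 and 870 bp in A677G and 0 and 786 bp in Y641F. It had 1090 and 887 bp in WT and 268 and 824 bp in LOF. Over the 4 clusters, 2 of 87 merged regions, or 2.3%, had this pattern, beside 1.24% of 101836 regions in the genome.

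Few genes with a peak in each WT library had none in either library of a mutant. For Y641F these were 5 of the 30 HOX genes with a peak in both WT libraries, or 16.7%, beside 6.94% of protein-coding genes. They were HOXA5, HOXB2, HOXA6, HOXC11 and HOXD10. For A677G there were 3 of 30, or 10% (HOXA5, HOXB2 and HOXD10), beside 2.53%. For LOF there was 1 of 30, HOXC11, or 3.33%, beside 1.72%. In reverse, none of the 5 HOX genes without a WT peak had a peak in both libraries of a mutant, beside 0.476% of such genes for Y641F, 0.654% for A677G and 0.981% for LOF. These counts were taken without a test. With the 26350 strongest peaks of each library, 0 of 19 HOX genes were such genes for Y641F and 0 of 19 for A677G, beside 2.63% and 1.33% of all genes. Among peaks with a −log10 q of at least 5 there were 14 of 18 for Y641F, or 77.8% beside 29.5%, and 5 of 18 for A677G, or 27.8% beside 15.2%. At this cut LOF also had 5 of 18, or 27.8% beside 9.88%. HOXA5 and HOXB2 were not among these. For LOF there were 2 of 32 without the first WT library, or 6.25% beside 2.98%, and 2 of 30 without the second LOF library, or 6.67% beside 3.28%.

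The genes that were accessible in only part of the libraries differed in which line lacked the peak. HOXA6 had 496 and 1873 bp in WT, none in Y641F, 354 bp in the first A677G library and none in the second, and 357 and 1829 bp in LOF. HOXC11, whose paralogue group is needed for the start of kidney formation, had 656 and 328 bp in WT and 441 and 313 bp in A677G, and no peak in Y641F or LOF. HOXC11 was thus the only gene of the 38 for which both LOF libraries lacked a peak that both WT libraries had, and the A677G libraries kept it.
HOXD10, a gene of the posterior spinal cord and limbs, had 397 and 457 bp in WT, 285 bp in the second LOF library and no peak in the other LOF library or the GOF libraries. HOXA9, which is expressed in blood stem cells and in many leukaemias, had 2796 and 3448 bp in WT, 2636 and 1177 bp in A677G, 2997 and 2394 bp in LOF, 333 bp in the first Y641F library and none in the second. HOXC10 had 1615 and 1823 bp in WT, 1089 and 1681 bp in A677G, 1642 and 1424 bp in LOF, 1083 bp in the second Y641F library and none in the first. HOXA9 and HOXC10 therefore lacked a peak in a single library, in each case of Y641F. The 333 bp of HOXA9 lay in chr7:27174411-27175913, a region shared with the HOXA10 window. With canonical start sites alone, HOXA9 lacked a peak in both Y641F libraries.

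HOXB5 had 532 and 298 bp in WT, 0 and 224 bp in Y641F, 0 and 209 bp in A677G, and 225 and 334 bp in LOF, so each GOF line had it in a single library. HOXA7 had a peak in 3 libraries, with 798 bp in the second WT, 354 bp in the first Y641F and 804 bp in the first LOF library. HOXC8, a thoracic gene, had a peak in 2 libraries, with 269 bp in the second WT and 324 bp in the second A677G library. HOXB1, which acts in the hindbrain, had 242 bp in the first WT and 57 bp in the first LOF library. At these 4 genes libraries of the same line differed in whether there was a peak at all. HOXB6 and HOXA11 had a peak in every library within the gene body, and at the promoter in 4 and 3 libraries.

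**Figure D3:**
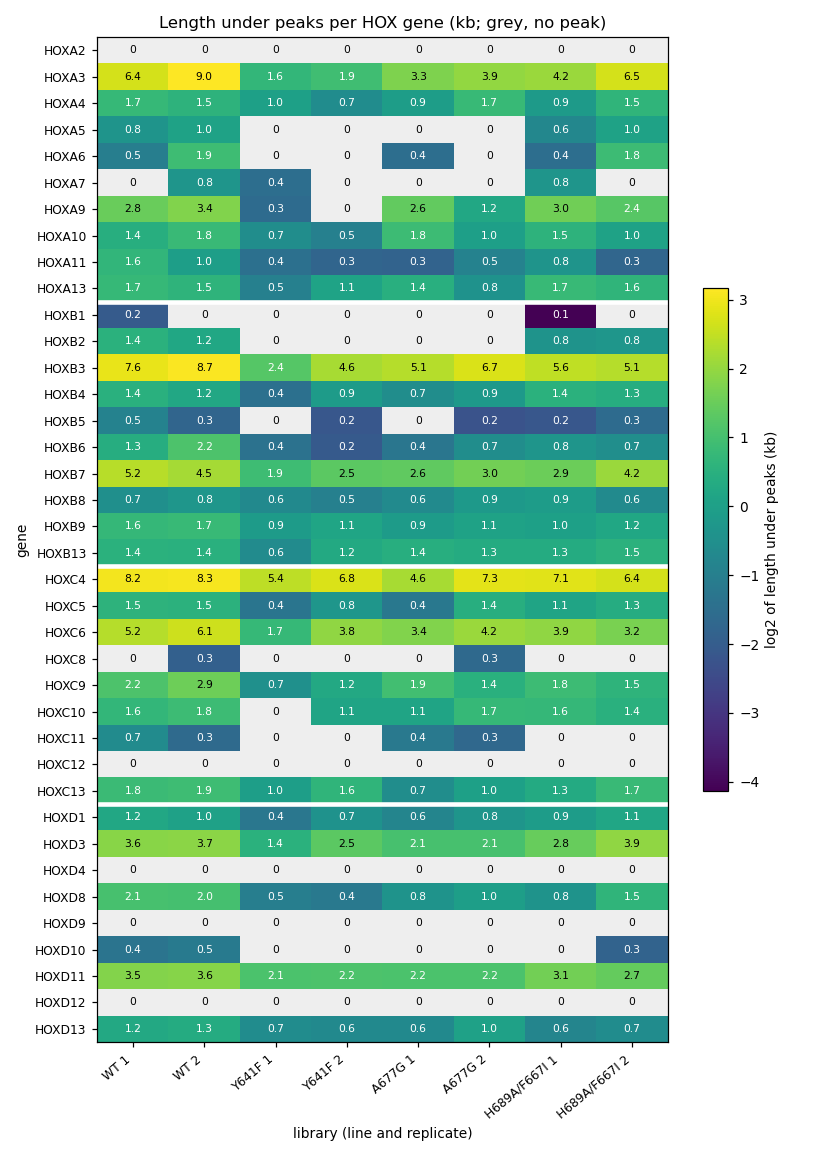
Length under peaks in kb for each of the 38 HOX genes (rows, by cluster and number) in each of the 8 libraries (columns), with colour on a log2 scale of kb and grey where there was no peak. HOXA2, HOXC12, HOXD4, HOXD9 and HOXD12 are grey throughout, and HOXA5 and HOXB2 only in the 4 Y641F and A677G columns.

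The largest lengths belonged to genes with long windows. HOXA3, a gene of the pharyngeal arches and thymus with a window of 47400 bp, had 6428 and 8967 bp in WT, 1628 and 1891 bp in Y641F, 3340 and 3918 bp in A677G, and 4213 and 6459 bp in LOF. All 4 GOF libraries lay below all WT and LOF libraries. HOXB3 had 7608 and 8707 bp in WT, 2350 and 4644 bp in Y641F, 5128 and 6711 bp in A677G, and 5555 and 5106 bp in LOF. HOXC4 had 8198 and 8299 bp in WT, 5371 and 6786 bp in Y641F, 4591 and 7262 bp in A677G, and 7145 and 6438 bp in LOF. In HOXB3 and HOXC4 the A677G libraries overlapped those of LOF. HOXD3 had 3645 and 3689 bp in WT, 1438 and 2529 bp in Y641F, 2052 and 2065 bp in A677G, and 2758 and 3850 bp in LOF, with no overlap between the sides. Annotated transcripts of these genes run across neighbours, and 23 of the 87 regions fell in the windows of 2 or more HOX genes, so such genes share peaks and are not independent.

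Of the 33 HOX genes with a peak in at least 1 library, 11 had less sequence under peaks in all GOF libraries than in any WT or LOF library, or 33.3%, beside 19.6% of the 17050 protein-coding genes with a peak. None had more, beside 0.00587%. Without the first LOF library there were 17 of 33, or 51.5%, beside 32.2% of all genes. At equal peak numbers there were 4 of 26, or 15.4%, beside 10.9%. Among peaks with a −log10 q of at least 5 there were 3 of 20, or 15%, beside 16.2%, so that the HOX share was not above that of all genes. With canonical start sites alone there were 6 of 29, or 20.7%, beside 13.8%. The 11 were HOXA3, HOXA5, HOXA6, HOXA13, HOXB2, HOXB4, HOXB5, HOXB6, HOXD1, HOXD3 and HOXD11. Of these, 4 came from HOXA, 4 from HOXB, 3 from HOXD and 0 from HOXC, and 4, 5 and 2 of them from paralogue groups 1 to 3, 4 to 8 and 9 to 13. For each the exact permutation p was 0.0286 (n = 4 and 4), and Benjamini-Hochberg adjustment over all 17050 genes gave 0.145, so no HOX gene passed 0.05, and neither did any other gene. The calls at HOXA5, HOXA6 and HOXB2 rest on GOF libraries of which most or all had no peak. The median log2 difference between GOF libraries and WT and LOF libraries, with 200 bp added to each length, was -0.69 over the 33 HOX genes and -0.47 over the 17050 genes.

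Among the other genes of this group, HOXB6 had 1337 and 2184 bp in WT, 382 and 239 bp in Y641F, 413 and 675 bp in A677G, and 800 and 690 bp in LOF, a log2 difference of -1.14. HOXB4, known for expanding blood stem cells, had 1418 and 1188 bp in WT, 367 and 909 bp in Y641F, 686 and 877 bp in A677G, and 1434 and 1344 bp in LOF, a difference of -0.81. The LOF libraries were at the level of WT at HOXB4 and below WT at HOXB6. HOXA13, a gene of the digits and genital tract, had 1702 and 1523 bp in WT, 515 and 1070 bp in Y641F, 1373 and 757 bp in A677G, and 1739 and 1575 bp in LOF, a difference of -0.76. HOXD11, of the same paralogue group as HOXC11, had 3508 and 3580 bp in WT, 2141 and 2201 bp in Y641F, 2152 and 2152 bp in A677G, and 3082 and 2729 bp in LOF. All GOF libraries of HOXD11 lay between 2141 and 2201 bp.
HOXD1 had 1174 and 1024 bp in WT, 421 and 747 bp in Y641F, 567 and 804 bp in A677G, and 925 and 1130 bp in LOF.

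Against WT alone, 30 of the 33 genes had less sequence under peaks in both Y641F libraries than in both WT libraries, or 90.9%, beside 78.1% of protein-coding genes. For A677G there were 25, or 75.8%, beside 65.5%. For LOF there were 16, or 48.5%, beside 50.6%. None had more in a mutant, beside 0.487% for Y641F, 1.14% for A677G and 2.97% for LOF. Without its first library 3 genes, or 9.09%, had more in A677G, beside 8.08%, and without its second library 4, or 12.1%, had more in LOF, beside 11.1%. At equal peak numbers 26 HOX genes had a peak, and 15 of them had less in Y641F, or 57.7% beside 57.8% of all genes. For A677G these were 10, or 38.5% beside 49.3%, and for LOF 9, or 34.6% beside 39.7%, so the HOX share was then at or below that of all genes. More was then found at 4 genes in Y641F, or 15.4% beside 3.54%, at 4 in A677G, or 15.4% beside 4.16%, and at 3 in LOF, or 11.5% beside 5.50%. They were HOXA4, HOXA11, HOXC4 and HOXC5 in Y641F, HOXA3, HOXA4, HOXA11 and HOXB3 in A677G, and HOXA3, HOXA4 and HOXC4 in LOF. With a −log10 q cut of 5, less in Y641F was found at 17 of 20 genes, or 85% beside 78.2%. For A677G and LOF it was 15 of 20 each, or 75%, beside 67.5% and 56.6%. With all peaks the LOF share was near that of all genes, and the 3 shares lie on a background in which 50.6% or more of all genes had less under peaks. The 3 genes with a peak that were not lower in Y641F were HOXA7, HOXB1 and HOXC8.
HOXD13, the most posterior gene of its cluster, had 1205 and 1291 bp in WT, 668 and 634 bp in Y641F, 629 and 1033 bp in A677G, and 574 and 663 bp in LOF, so that all 3 mutants lay below WT and the LOF line was as low as the GOF lines. HOXB8 had 702 and 805 bp in WT, 625 and 521 bp in Y641F, 644 and 867 bp in A677G, and 936 and 642 bp in LOF. At HOXB8 only Y641F lay below WT.

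Regions with a peak in all 8 libraries allow width and height to be compared. Of the 87 merged regions in the clusters 31, or 35.6%, had such a peak, beside 18.4% of all regions, and these were 5 of 26 in HOXA, 11 of 29 in HOXB, 7 of 21 in HOXC and 8 of 11 in HOXD. HOXD was thus made up mostly of regions found in every library and HOXA mostly of regions that were not. In 8 of the 31, or 25.8%, the length under peaks was lower in all GOF libraries than in any WT or LOF library, beside 13.7% of the 18787 such regions in the genome, and 4 of the 8 lay in HOXD. In 1 of them, or 3.23%, the fold enrichment was lower in all GOF libraries, beside 8.3%, and in 2, or 6.45%, it was higher, beside 1.55%. The median ratio of GOF to WT and LOF means was 0.769 for length and 1.01 for fold in the HOX regions, and 0.810 and 0.953 over the 18787 regions. By the median of the HOX regions, the length under peaks was thus lower in the GOF libraries, at a fold enrichment close to that of the other libraries. The fold of a broad peak is a mean over its length, so the 2 measures are not independent.

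The region with lower fold lies within HOXD3 at chr2:176145698-176146517, with a fold of 6.67 and 4.84 in the WT libraries, 3.52 and 4.06 in those of Y641F, 4.55 and 3.95 in those of A677G, and 5.01 and 5.20 in those of LOF. The 2 with higher fold lay at HOXB6, chr17:48601588-48603384, and within HOXA11, chr7:27182224-27182756. At the HOXB6 region the length was 1021 and 1755 bp in WT, 382 and 239 bp in Y641F, 200 and 261 bp in A677G, and 548 and 690 bp in LOF. This was the narrowest of the 31 in GOF relative to the others, with a ratio of 0.270. In contrast, a region between HOXB9 and HOXB13, chr17:48646080-48647735, outside all HOX windows, had 1502 and 1550 bp in WT, 1531 and 1423 bp in Y641F, 1545 and 1567 bp in A677G, and 1513 and 1615 bp in LOF. Its length differed little between any of the libraries.

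**Figure D4:**
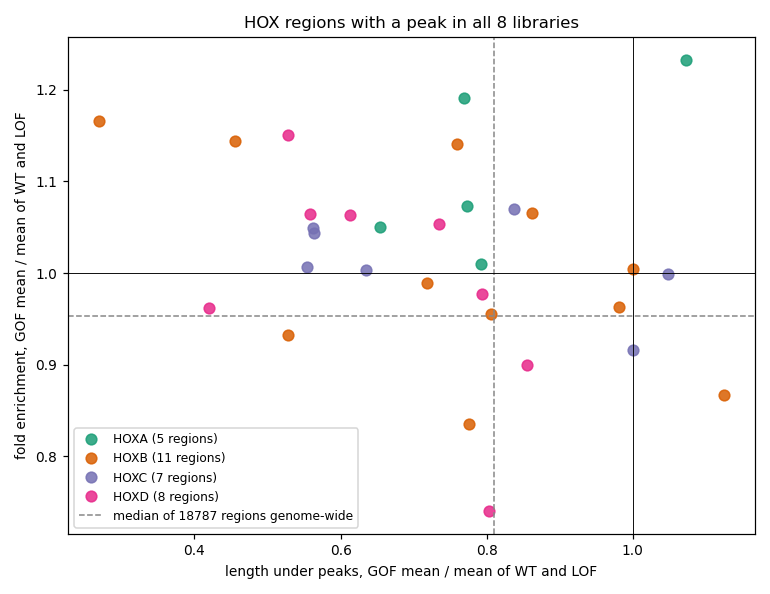
The 31 HOX regions with a peak in all 8 libraries, with the ratio of GOF to WT and LOF mean length under peaks on the x axis and the same ratio of MACS2 fold enrichment on the y axis, coloured by cluster. Dashed lines give the medians of the 18787 such regions in the genome, 0.810 and 0.953; 27 of the 31 points lie to the left of 1 and 12 of the 31 below 1.

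Genes that work with the HOX genes were counted whole, by the same rule. Of 10 TALE cofactors, homeodomain proteins that bind DNA together with HOX proteins, 0 had less under peaks in all GOF libraries than in any WT or LOF library, while 8 had less in both Y641F libraries than in both WT libraries and 6 in both A677G libraries, near the 78.1% and 65.5% of all protein-coding genes. Of 7 upstream regulators 4 had less in all GOF libraries, namely the retinoic acid receptor genes RARA, RARB and RARG and KMT2A, whose product methylates lysine 4 of histone H3 at HOX genes. RARB had 11906 and 11433 bp in WT, 3791 and 6768 bp in Y641F, 4274 and 6616 bp in A677G, and 6795 and 7559 bp in LOF. Of 8 neighbours of the clusters 2 did, SKAP2 and CBX1, and of 12 long non-coding RNA genes of the clusters 3 did, HOTTIP, HOXC-AS2 and HAGLR. No gene of the 4 lists had more in all GOF libraries, and for the protein-coding ones the background is again 19.6% and 0.00587%. That background counts only genes with a peak, whereas CDX4 among the regulators and PRAC1 among the neighbours had none in any library.

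A peak in each WT library, with none in Y641F, was found at MEIS3 among the cofactors, at CDX1 among the regulators, and at the long non-coding RNA genes HOTAIR and HOXA10-AS. This was 1 of the 10 cofactors and 1 of the 7 regulators, beside 6.94% of protein-coding genes with a peak in both WT libraries. The 7 regulators include CDX4, which had no peak in any library and so could not show this pattern. No such share was counted for long non-coding RNA genes. None of the genes of these lists had this pattern for A677G or LOF, beside 2.53% and 1.72% of protein-coding genes. HOTAIR, which lies in the HOXC cluster beside HOXC11, had 2332 and 1751 bp in WT, none in Y641F, 735 and 863 bp in A677G, and 1074 and 556 bp in LOF. HOXA10-AS, which overlaps HOXA9 and HOXA10, had 1211 and 1447 bp in WT, none in Y641F, 1369 and 0 bp in A677G, and 1397 and 1494 bp in LOF. Long non-coding RNA genes of the clusters overlap HOX windows, and ATAC-seq peaks carry no strand, so their peaks are in part those already described.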

How the data were processed

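HEK293T ATAC-seq was analysed in 8 libraries, 2 for each of 4 EZH2 lines, with groups and replicate numbers from the sample titles. Whether replicates were separate cultures is not given in the labels, and the study calls them biological replicates, so p-values measure the spread between these libraries. Per the labels, the authors used Trim Galore 0.6.5, BWA 0.7.17, deepTools 3.5.1 and MACS2 2.2.7.1 with GRCh38. The deposited lists hold broad peaks called in each library separately, each with a fold enrichment (a ratio to local background), a −log10 p and a −log10 q, and a score that was not used. Shifting for the transposase, mitochondrial reads and read depth were not stated. A lower read depth yields fewer and narrower peaks, and the count-based test of the study could not be run on peak lists.

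Peaks on chromosomes 1 to 22 and X were placed on GENCODE 44 windows (gene body and 1 kb around start sites). The exact two-sided permutation test compared log2 lengths under peaks of 4 GOF with 4 WT and LOF libraries, for clusters and for every protein-coding gene with a peak (200 bp added, the smallest peak width), with Benjamini-Hochberg adjustment. Members, gene lists and tests were chosen with earlier results of these data known. Values in every library were given for the genes with the highest and lowest mean WT length in a cluster, for up to 10 genes without a gene or promoter peak in the most libraries, and for up to 8 genes with the largest GOF difference without overlap; other genes were added after their values were seen. Alternatives were a −log10 q of at least 5, equal peak numbers, other windows, a wider cluster span, a replicate block and leaving out each library. Scripts (Python 3.11.15, numpy 2.4.6, pandas 2.3.3, matplotlib 3.10.9) were tested on a copy of a WT peak list with peaks removed. Lengths were checked base by base, and the exact p on values with a known answer. A few genes of the lists are not reported here. Promoter sequences are from RefSeq, GRCh38.p14.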

Additional observations from a re-analysis of the deposited data

Results flagged for a closer look

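Outlying libraries were looked for in 69 sets of 4 libraries, of which chance flags about 1 in 20, and 3 were found. The HOXD share of the second LOF library was 416 bp per Mb of covered sequence, above 322 to 331 in the WT and the other LOF library. HOXB13 had 648 bp under peaks in the first Y641F library, below 1239 to 1352 bp in the other GOF libraries, and that library had the fewest peaks. HOXD13 had 1033 bp in the second A677G library, above 629 to 668 bp in the other GOF libraries.

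In 1 of 138 comparisons of 2 mutants, both libraries of each moved in opposite directions from WT. The HOXB share was 449 and 511 bp per Mb in Y641F, against 515 and 511 in WT, and 560 and 576 in A677G, a difference of -88.4 between the Y641F and A677G means. The difference was not tested, and the higher Y641F library was below the lower WT library by less than 1 bp per Mb.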

How the results depend on the processing

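Peak lists without read counts limit these results, since length under peaks moves with the number of peaks called. With the 26350 strongest peaks of each library, the log2 ratio to WT turned to 0.65 in HOXA, 0.17 in HOXB and 0.011 in HOXC for A677G, to 0.61, 0.083 and 0.017 for LOF, and to 0.068 in HOXC for Y641F, and the Y641F ratio moved to -0.14 in HOXA and -0.29 in HOXB. The GOF difference became 0.012 for HOXC length, 0.26 for HOXA share and -0.39 for HOXD share. Genes that lacked a mutant peak were then 0 of 19 for Y641F and 0 of 19 for A677G, beside 2.63% and 1.33% of all genes. Genes with a peak in the mutant alone were 3, 2 and 1 of 17 for Y641F, A677G and LOF. These were 17.6%, 11.8% and 5.88%, beside 3.57%, 3.36% and 2.74%. Genes lower than WT were 15, 10 and 9 of 26, beside 57.8%, 49.3% and 39.7%. Genes higher were 4, 4 and 3 of 26, beside 3.54%, 4.16% and 5.50%. Genes lower or higher in all GOF libraries were 4 and 1 of 26, beside 10.9% and 0.251%. With a −log10 q of at least 5, genes that lacked a mutant peak were 14, 5 and 5 of 18 for Y641F, A677G and LOF. The shares of all genes beside these were 29.5%, 15.2% and 9.88%. Genes lower were 17, 15 and 15 of 20, beside 78.2%, 67.5% and 56.6%. In all GOF libraries 3 of 20 were lower, beside 16.2%, and the HOXD share difference was -1.07. The log2 ratios to WT were then -2.33 and -4.35 in HOXA and HOXD for Y641F, -1.19, -2.68, -1.38 and -2.30 in HOXA, HOXB, HOXC and HOXD for A677G, and -1.17, -1.22 and -2.55 in HOXB, HOXC and HOXD for LOF. The other cluster differences between GOF and the rest, and the Y641F ratios of HOXB and HOXC, had no value there, since a library had no peak left. With canonical start sites alone, 1 of 29 genes each was higher in Y641F and A677G, or 3.45%, beside 0.545% and 1.56% of all genes. A LOF peak was lacking at 2 of 25, or 8% beside 1.73%, and 6 of 29 were lower in all GOF libraries, beside 13.8%. With 2 kb around start sites 0 HOX genes lacked an A677G peak, without a share of all genes to set beside it. HOXA5, HOXB2 and HOXD10 were thus not among such genes at that window. The cause was not tested. With 50% of the peak inside the window, and with 10 kb around clusters, directions and counts stayed within the limits above.

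Leaving out 1 library at a time, GOF differences in length were -1.49 to -1.04 in HOXA, -0.85 to -0.46 in HOXB, -0.74 to -0.42 in HOXC and -0.81 to -0.60 in HOXD. Share differences were -0.73 to -0.36, -0.0054 to 0.11, 0.093 to 0.18 and -0.033 to 0.12, and turned to -0.0054 in HOXB without the second A677G library and to -0.033 in HOXD without the first Y641F library. Genes lower in all GOF libraries were 11 to 17, with 17 without the first LOF library. Genes higher than WT were 0 to 3 for A677G, with 3 without its first and 1 without its second library, and 0 to 4 for LOF, with 2 without the first WT or the first LOF library and 4 without the second LOF library. As shares, the 1 for A677G was 3.03% beside 4.43% of all genes, and each LOF count of 2 was 6.06%, beside 8.88% and 11.5%. Genes lacking a LOF peak were 1 to 2, with 2 without the first WT or the second LOF library. With 3 against 4 libraries the exact p cannot go below 0.0286.

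Same-numbered libraries shared only a number, with correlations of -0.0091 to 0.040 between their deviations from the group means over 17050 genes. With a replicate block, the GOF differences in length were -1.27, -0.69, -0.60 and -0.70 in HOXA, HOXB, HOXC and HOXD. The exact permutation p were 0.0556, 0.0556, 0.111 and 0.0556. The block allows no exact p below 0.0556, so no test with it could pass 0.05. In HOXA and HOXD the exact permutation p thus moved from 0.0286 without the block to above 0.05. After Benjamini-Hochberg adjustment no cluster test passed 0.05 either way, the lowest adjusted exact p being 0.148 with the block and 0.114 without.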
